A study of Mus musculus with 12 samples.

Results

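The genes described are 9 markers of cortical excitatory neurons, namely Slc17a7, Neurod2, Neurod6, Tbr1, Fezf2, Cux2, Rorb, Rasgrf2 and Lamp5, chosen by name as the rows of the count table with these symbols. All 9 were found among the 21956 genes of the table, and all 9 had enough reads to be tested in every comparison. They were followed across the 4 groups and across single libraries as a readout of how much cortex the dissected brain tissue held. RNA was sequenced from tissue within a radius of 1 to 2 mm of the hematoma, cut in 1-mm slices, giving 12 libraries with 3 per group, which are called mice 1 to 3 of each group after their replicate numbers. The Sham-Fabp4fl/fl group carried floxed Fabp4 alleles (written Fabp4fl_fl in the labels) and had sham surgery without collagenase. The Sham-Fabp4CKO group had the same surgery and carried floxed Fabp4 together with a Tmem119-driven inducible Cre recombinase, so that Fabp4 is deleted in microglia after tamoxifen. The ICH-Fabp4fl/fl and ICH-Fabp4CKO groups had the same genotypes and an intracerebral hemorrhage (ICH) induced by collagenase injected into the right striatum, with tissue taken 48 h later. The age of these mice, and whether the floxed mice without Cre also received tamoxifen, were not given in the sources used here.

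The cerebral cortex is built from layers of glutamatergic (excitatory) projection neurons that load glutamate into synaptic vesicles through the transporter VGLUT1, the product of Slc17a7. Their layer identity is set by transcription factors, with Tbr1 and Fezf2 acting in deep layers, Cux2 in upper layers and Rorb in the middle layer, while the bHLH factors Neurod2 and Neurod6 mark cortical and hippocampal excitatory neurons in general. The striatum below the cortex has mostly GABAergic projection neurons, which lack VGLUT1 and these bHLH factors, so the genes are commonly read as a sign of cortex in a striatal dissection. Some of them are less exclusive, since Lamp5 is also made by a class of GABAergic interneurons and by other forebrain neurons, and Rorb is also active in the thalamus.

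Total counts ran from 15650813 to 22406216 per library. Fabp4, the targeted gene, had 2, 1 and 2 reads in Sham-Fabp4fl/fl, 0 in each Sham-Fabp4CKO library, 46, 63 and 24 in ICH-Fabp4fl/fl and 5, 3 and 10 in ICH-Fabp4CKO, summed over the whole gene. Levels below are CPM, the count of a gene scaled to the library's size by TMM, and within a group they are given for mouse 1, mouse 2 and mouse 3. No library was a copy of another. ICH-Fabp4CKO mouse 1 had 1 read of Y-linked genes against 1302 to 2251 in the other 11 libraries, and mitochondrial genes took 16.3% of the counts of ICH-Fabp4fl/fl mouse 1 against 7.90 to 11.9% elsewhere. Values without either library are given beside the results that move with them. In bulk tissue, fewer neurons and less RNA of these genes per neuron cannot be told apart. The mean log2 CPM of 14 striatal genes was 6.22 to 8.50 over the 12 libraries, and that of the 9 cortical genes 1.83 to 5.27. The 2 lists hold different genes, so the gap between their means cannot show which region a piece held.

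The pan-excitatory genes were lowest in ICH-Fabp4fl/fl and varied between the libraries of the other groups. Slc17a7, the vesicular glutamate transporter, stood at 274, 394 and 58.5 CPM in Sham-Fabp4fl/fl, at 81.8, 78.9 and 35.9 in Sham-Fabp4CKO, at 8.80, 7.55 and 34.97 in ICH-Fabp4fl/fl and at 68.2, 387 and 82.7 in ICH-Fabp4CKO. The 3 ICH-Fabp4fl/fl libraries were the lowest of the 12, with mouse 3 just under Sham-Fabp4CKO mouse 3, and ICH-Fabp4CKO mouse 2 was level with the highest sham library. Neurod2, a bHLH factor of excitatory neuron differentiation, had 38.8, 20.7 and 2.27 CPM in Sham-Fabp4fl/fl, 3.10, 3.49 and 0.874 in Sham-Fabp4CKO, 0.281, 0.125 and 0.372 in ICH-Fabp4fl/fl and 2.39, 16.8 and 4.70 in ICH-Fabp4CKO. Neurod6, its close relative, had 21.7, 70.4 and 2.32 CPM in Sham-Fabp4fl/fl, 6.47, 5.46 and 1.38 in Sham-Fabp4CKO, 0.211, 0.374 and 0.425 in ICH-Fabp4fl/fl and 2.39, 11.3 and 4.92 in ICH-Fabp4CKO. For both factors the ICH-Fabp4fl/fl libraries lay below all others and rested on 2 to 7 reads of Neurod2 and 3 to 8 reads of Neurod6, so their counting error is large.

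The deep-layer factors varied less between sham libraries. Tbr1, the T-box factor of corticothalamic neurons, stood at 14.4, 15.9 and 13.5 CPM in Sham-Fabp4fl/fl, at 22.6, 19.3 and 14.4 in Sham-Fabp4CKO, at 0.774, 0.624 and 2.60 in ICH-Fabp4fl/fl and at 8.02, 42.3 and 11.2 in ICH-Fabp4CKO. Fezf2, a zinc finger factor of subcortically projecting neurons, was low throughout, at 3.33, 3.78 and 2.58 CPM in Sham-Fabp4fl/fl, 3.88, 1.93 and 2.34 in Sham-Fabp4CKO, 0.141, 0.436 and 1.01 in ICH-Fabp4fl/fl and 1.29, 3.94 and 3.34 in ICH-Fabp4CKO. For both genes the 3 ICH-Fabp4fl/fl libraries were again the lowest of the 12. ICH-Fabp4CKO mouse 2 held the highest level of both.

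The upper-layer and middle-layer genes followed other patterns. Cux2, a homeobox factor of upper layers, had 41.2, 34.5 and 17.4 CPM in Sham-Fabp4fl/fl, 24.6, 23.8 and 26.0 in Sham-Fabp4CKO, 8.59, 9.91 and 16.3 in ICH-Fabp4fl/fl and 11.1, 16.4 and 4.54 in ICH-Fabp4CKO. All 6 ICH libraries lay below all 6 sham libraries, and the ranges of the ICH groups overlapped. Rorb, a nuclear receptor that marks the middle layer, had 36.9, 34.4 and 14.3 CPM in Sham-Fabp4fl/fl, 21.4, 15.4 and 20.0 in Sham-Fabp4CKO, 16.2, 21.2 and 32.1 in ICH-Fabp4fl/fl and 18.2, 28.1 and 14.7 in ICH-Fabp4CKO, and the 4 ranges overlapped. Rasgrf2, a guanine nucleotide exchange factor used as an upper-layer marker, was even over the sham libraries at 77.6, 83.6 and 86.2 CPM in Sham-Fabp4fl/fl and 106, 77.2 and 115 in Sham-Fabp4CKO. It stood at 7.74, 14.97 and 13.2 CPM in ICH-Fabp4fl/fl and at 11.1, 60.8 and 8.69 in ICH-Fabp4CKO, where mouse 2 was highest but still below every sham library. Lamp5, a lysosome-associated membrane protein, was highest in the Sham-Fabp4fl/fl mouse in which the pan-excitatory genes were lowest, at 37.0, 42.8 and 85.0 CPM in Sham-Fabp4fl/fl and 75.8, 98.4 and 64.8 in Sham-Fabp4CKO. It had 17.2, 40.8 and 57.1 CPM in ICH-Fabp4fl/fl and 29.8, 44.0 and 24.4 in ICH-Fabp4CKO.

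**Figure D1:**
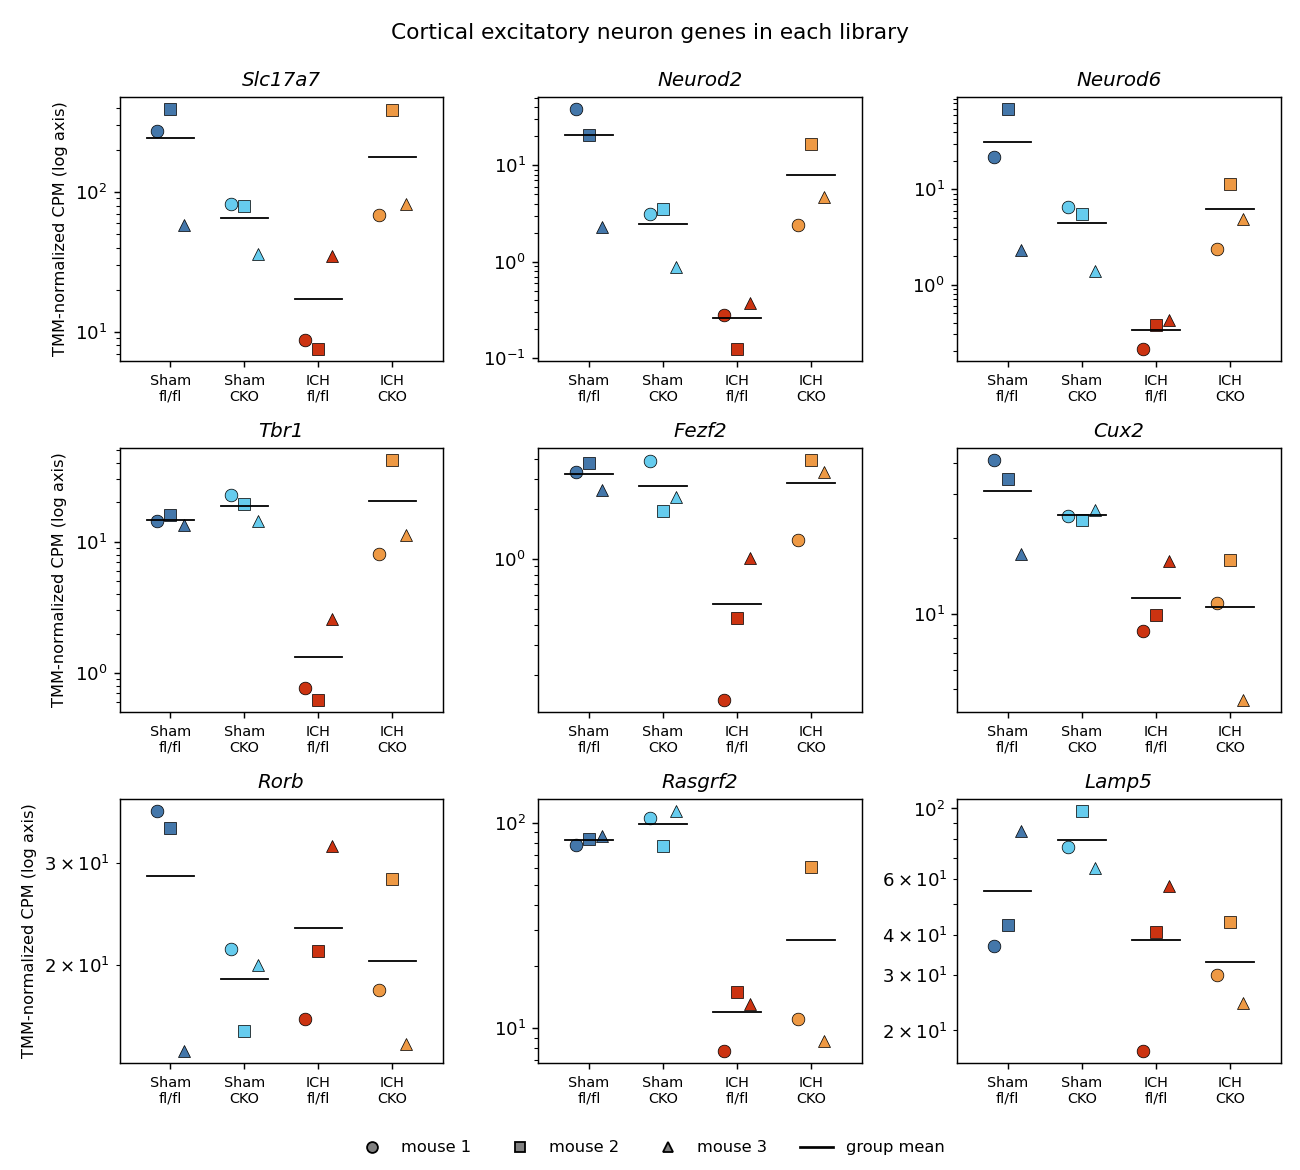
TMM-normalized CPM of the 9 genes on log axes, with 1 point per library (shape gives the mouse number), a line at each group mean and colours for the 4 groups. The ICH-Fabp4fl/fl points of Slc17a7, Neurod2, Neurod6, Tbr1 and Fezf2 lie below those of all other groups, with Neurod2 at 0.125 to 0.372 CPM, while the 4 ranges of Rorb overlap.

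Per length of exon, Slc17a7 and Lamp5 were the most abundant of the 9 genes in Sham-Fabp4fl/fl. In TPM, the length-scaled share of a library computed from the counts and the exon length of each gene in GENCODE M21, Slc17a7 stood at 152 ± 107 (SD, n = 3), Lamp5 at 64.1 ± 31.9 and Neurod6 at 49.7 ± 55.7, and the ranges of these 3 overlapped. Rasgrf2 followed at 30.4 ± 2.31 TPM, Neurod2 at 21.96 ± 19.2, Cux2 at 10.4 ± 3.95, Tbr1 at 9.06 ± 0.737 and Rorb at 8.70 ± 3.67, and Fezf2 was last at 3.60 ± 0.641. From Slc17a7 to Rorb the range of each gene overlapped that of the next in this order, whereas all Fezf2 libraries lay below all Rorb libraries. In ICH-Fabp4fl/fl the order by TPM changed, with Lamp5 at 36.5 ± 21.7, Slc17a7 at 8.76 ± 8.52, Rorb at 5.71 ± 2.54, Rasgrf2 at 3.56 ± 1.52 and Cux2 at 3.13 ± 1.39 ahead of Tbr1 at 0.668 ± 0.600, Fezf2 at 0.490 ± 0.429, Neurod6 at 0.431 ± 0.188 and Neurod2 at 0.218 ± 0.113.

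The comparison of ICH-Fabp4fl/fl with Sham-Fabp4fl/fl asks what the hemorrhage does in mice with Fabp4 intact. The cortical genes were lower after ICH, with 7 of 9 falling at an adjusted p under 0.05 by edgeR's quasi-likelihood F-test (adjusted by Benjamini-Hochberg), where 19.3% of all 14719 genes tested were lower. The same 7 genes had no overlap between the groups, against 27.4% of all genes not overlapping in this direction. The median log2 fold change of the 9 genes was -2.82, and that of all genes tested was 0.02. Neurod6 fell by 6.52 on the log2 scale (SE 1.31, adjusted p = 0.00717) and Neurod2 by 6.28 (SE 1.13, adjusted p = 0.00476). Slc17a7 fell by 3.83 (SE 0.88, adjusted p = 0.0117). Of the deep-layer factors, Tbr1 fell by 3.43 (SE 0.51, adjusted p = 0.00217) and Fezf2 by 2.57 (SE 0.58, adjusted p = 0.0115). Rasgrf2 fell by 2.82 and had the smallest error of the 9 (SE 0.26, adjusted p = 0.000409), and Cux2 fell by 1.44 (SE 0.38, adjusted p = 0.0186). Rorb (log2 fold change -0.33, adjusted p = 0.522) and Lamp5 (-0.54, adjusted p = 0.379) were not called. Without ICH-Fabp4fl/fl mouse 2 the calls of Cux2 (adjusted p = 0.0701) and Fezf2 (adjusted p = 0.0512) were lost. Cux2 was also lost without Sham-Fabp4fl/fl mouse 1 (0.0521) or mouse 2 (0.0555). Without ICH-Fabp4fl/fl mouse 1, the library with the high mitochondrial share, all 7 calls held. Single libraries moved some fold changes by more than 1.5 times with the call kept. Without ICH-Fabp4fl/fl mouse 3 the log2 fold change was -4.95 for Slc17a7, -4.44 for Tbr1 and -3.48 for Fezf2. For Neurod6 it was -5.18 without Sham-Fabp4fl/fl mouse 2 and -7.12 without mouse 3, and for Neurod2 it was -5.49 without mouse 1.

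Markers of other neurons moved beside these genes. Of 12 pan-neuronal genes 11 fell, with a median log2 fold change of -1.19 and the smallest p in Stmn2 (-1.22), Syp (-1.21) and Nefl (-1.61). When each library was scaled to equal pan-neuronal RNA, a scaling under which the median log2 fold change of all genes was 1.31 and the calls over all genes went from 2845 lower and 3862 higher to 298 and 9694, 6 of the 9 cortical genes were still called lower, and Cux2 was not (-0.23, adjusted p = 0.641). Rorb then stood at 0.89 and Lamp5 at 0.48, neither called. Of 23 other cortical excitatory genes 14 fell and 1 rose, with a median of -1.80. The 1 that rose was Sla (3.17), a Src-like adaptor that is also made by immune cells, and Nptx1 (-3.49) and Ntsr1 (-2.79) had the smallest p among those that fell. Of 14 striatal projection neuron genes 0 were called by edgeR, with 1 at an unadjusted p under 0.05, 1 called by DESeq2 and a median log2 fold change of -0.45. Pdyn (-1.20), Pde10a (-1.04) and Gpr6 (-0.70) had the smallest p among them. The sham baseline of the striatal list was uneven, with mean log2 CPM of 6.76, 6.92 and 8.37 in Sham-Fabp4fl/fl, against 7.82 to 8.50 in Sham-Fabp4CKO. In ICH-Fabp4CKO against Sham-Fabp4CKO the median of the striatal list was -1.08, with 14 of 14 genes below 0.

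The sham libraries themselves differed in regional markers. The mean log2 CPM of 6 thalamic genes was 6.87 and 6.32 in Sham-Fabp4fl/fl mice 1 and 2, against 4.38 in mouse 3 and 3.07 to 5.28 in the other 9 libraries. The striatal list showed the reverse order in the same mice, at 6.76 and 6.92 in mice 1 and 2 and 8.37 in mouse 3. Slc17a7 was 4.69-fold and 6.74-fold higher in mice 1 and 2 than in mouse 3, Neurod2 17.1-fold and 9.09-fold, and Neurod6 9.35-fold and 30.3-fold, whereas the ratios were 1.07 and 1.18 for Tbr1 and 0.900 and 0.970 for Rasgrf2. In the comparison with ICH-Fabp4fl/fl, 3 of the 6 thalamic genes fell, Gbx2 (-4.56), Tcf7l2 (-2.67) and Slc17a6 (-3.79), with a list median of -2.11, beside 19.3% of all genes called lower. With Sham-Fabp4fl/fl mice 1 and 2 both left out, which leaves mouse 3 as the only sham library with the spread taken from the ICH libraries, 2 of the 9 cortical genes were still called lower, Tbr1 (-3.37, adjusted p = 0.0478) and Rasgrf2 (-2.93, adjusted p = 0.0183), while over all genes the lower calls went from 2845 to 385. Neurod2 then stood at -3.16 (adjusted p = 0.0578), Neurod6 at -2.82 (adjusted p = 0.0602), Slc17a7 at -1.83 (adjusted p = 0.184) and Rorb at 0.63 (adjusted p = 0.368). With all 6 sham libraries in place of 3, the same 7 genes were called lower as with 3, while the lower calls over all genes went from 2845 to 4636. The part of the regional make-up of the dissected piece in these differences was not tested.

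**Figure D2:**
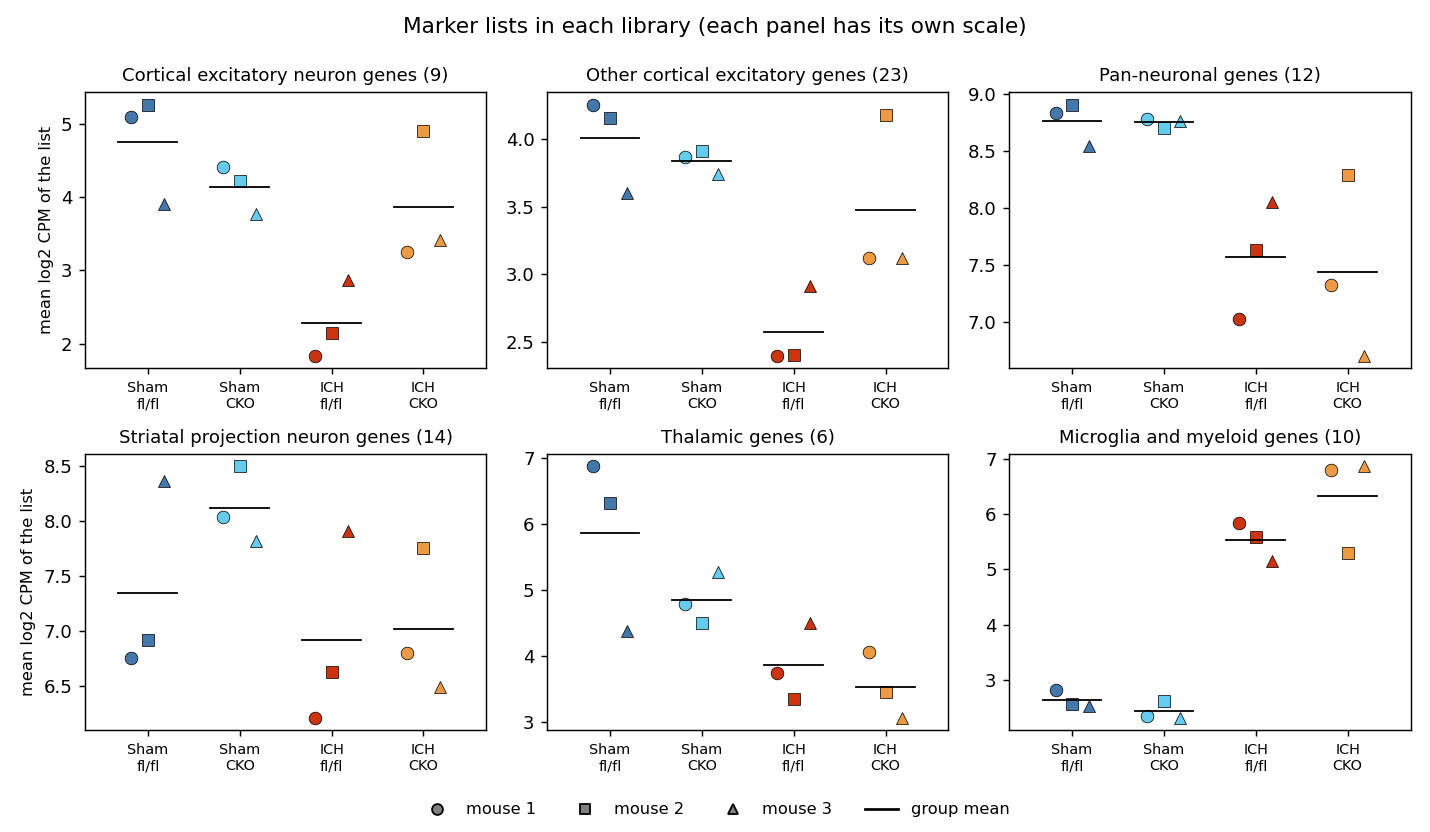
Mean log2 CPM of 6 marker lists in each library, with 1 point per library, a line at each group mean and a separate scale per panel. Sham-Fabp4fl/fl mice 1 and 2 are high in the mean of the cortical (5.09 and 5.27) and thalamic genes (6.87 and 6.32) and low in that of the striatal genes (6.76 and 6.92). Not all cortical genes share this, with Lamp5 at 0.436 and 0.504 times its level in mouse 3 and Rasgrf2 at 0.900 and 0.970 times. ICH-Fabp4CKO mouse 2 is above mice 1 and 3 in both cortical panels, the pan-neuronal panel and the striatal panel (striatal 7.75, against 6.80 and 6.50). It is below them in the microglia and myeloid panel (5.30, against 6.79 and 6.86) and between them in the thalamic panel.

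The promoters of the 4 genes with the largest falls in ICH-Fabp4fl/fl against Sham-Fabp4fl/fl are shown, to give the sequence at the start of the genes that moved most. All 9 symbols had an entry in the RefSeq table of build GRCm38.p6, with 12 windows in total. Each line gives the 250 bases before the transcription start, 5′ to 3′ on the gene's strand, with every match of CANNTG in capitals, the E-box pattern that bHLH factors such as Neurod2 and Neurod6 recognise. The pattern is its own reverse complement, so 1 search covers both strands. The windows lie at chr11:98329646-98329895 (Neurod2, minus strand), chr6:55681264-55681513 (Neurod6, minus strand), chr7:45163671-45163920 (Slc17a7, plus strand) and chr2:61804203-61804452 (Tbr1, plus strand).
Neurod2: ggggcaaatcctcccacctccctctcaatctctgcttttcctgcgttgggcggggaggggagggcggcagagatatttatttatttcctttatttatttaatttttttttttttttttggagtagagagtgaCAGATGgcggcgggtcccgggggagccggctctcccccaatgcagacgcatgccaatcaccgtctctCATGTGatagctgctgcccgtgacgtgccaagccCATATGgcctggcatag
Neurod6: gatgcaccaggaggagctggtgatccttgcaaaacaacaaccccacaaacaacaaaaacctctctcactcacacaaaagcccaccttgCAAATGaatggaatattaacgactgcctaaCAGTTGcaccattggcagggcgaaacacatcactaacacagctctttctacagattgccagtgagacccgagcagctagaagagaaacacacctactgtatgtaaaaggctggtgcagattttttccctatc
Slc17a7: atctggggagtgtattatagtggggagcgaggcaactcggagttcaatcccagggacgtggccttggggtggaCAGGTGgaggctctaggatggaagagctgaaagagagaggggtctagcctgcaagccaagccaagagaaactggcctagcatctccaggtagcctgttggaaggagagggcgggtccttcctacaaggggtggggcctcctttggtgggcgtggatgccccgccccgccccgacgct
Tbr1: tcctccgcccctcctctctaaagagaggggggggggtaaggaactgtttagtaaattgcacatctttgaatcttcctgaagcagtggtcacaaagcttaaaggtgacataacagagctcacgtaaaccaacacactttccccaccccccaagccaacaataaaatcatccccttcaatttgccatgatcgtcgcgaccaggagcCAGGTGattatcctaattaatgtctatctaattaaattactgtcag
CANNTG was found in 8 of the 9 genes (10 of 12 windows), and in 66.2% of all 32851 windows of this length. The form CAGATG or its reverse complement CATCTG, which is contained in CANNTG, was found in 2 of the 9 genes (2 of 12 windows), and in 14.4% of all windows. A match is only a description of these letters.

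The comparison of ICH-Fabp4CKO with Sham-Fabp4CKO asks the same question in mice without microglial Fabp4. The pan-excitatory and deep-layer genes were not called lower here. Of the 9 genes 1 was called lower, where 11.1% of all 14737 genes tested were, and the median log2 fold change of the 9 was 0.10, beside 0.01 for all genes. The called gene was Lamp5 (log2 fold change -1.28, SE 0.27, adjusted p = 0.0177), which was lost without ICH-Fabp4CKO mouse 1 (adjusted p = 0.0695) or without any 1 of the 3 sham mice (0.0545 to 0.0701). Cux2 (-1.21, SE 0.43, adjusted p = 0.0652) and Rasgrf2 (-1.88, SE 0.76, adjusted p = 0.0898) missed the threshold in edgeR. DESeq2 called both lower (adjusted p = 0.0153 and 0.0188), beside 3541 of all genes. With Lamp5, Cux2 and Rasgrf2 made 3 of 9 genes without overlap between the groups, against 28.9% of all genes. Slc17a7 stood at a log2 fold change of 1.45 (SE 0.74, adjusted p = 0.150), Neurod2 at 1.68 (SE 0.83, adjusted p = 0.142), Neurod6 at 0.49, Tbr1 at 0.13, Rorb at 0.10 and Fezf2 at 0.08, with ranges that overlapped between the groups.

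One library set much of this result. Without ICH-Fabp4CKO mouse 2, 4 genes were called lower, Rasgrf2 (-3.33, adjusted p = 1.9e-05), Cux2 (-1.68, adjusted p = 0.00278), Lamp5 (-1.55, adjusted p = 0.000352) and Tbr1 (-0.96, adjusted p = 0.00876), while Neurod2 stood at 0.52 and Slc17a7 at 0.21. The lower calls over all genes then went from 1642 to 4896. Without ICH-Fabp4CKO mouse 3, Cux2 (-0.87, adjusted p = 0.0381) and Lamp5 (-1.13, adjusted p = 0.0347) were called, and the lower calls over all genes were 697. The pan-neuronal genes had a median log2 fold change of -1.16 in this comparison, beside -1.19 in the mice with Fabp4 intact. Of these 12 genes, 2 were called lower by edgeR and 12 by DESeq2, with 10 at an unadjusted p under 0.05. The striatal genes had a median of -1.08. Of these 14 genes, 4 were called lower by edgeR and 10 by DESeq2, with 10 at an unadjusted p under 0.05, beside 7726 of all genes. Scaled to equal pan-neuronal RNA, under which the median of all genes was 1.46 and the calls over all genes went from 1642 lower and 3605 higher to 103 and 9702, 0 of the 9 genes were called lower by edgeR and 4 were called higher, Slc17a7 (2.43, adjusted p = 0.0100), Neurod2 (2.71, adjusted p = 0.0151), Rorb (1.39, adjusted p = 0.0158) and Tbr1 (1.17, adjusted p = 0.0478). Of these 4, Rorb and Tbr1 lay below the median of all genes under this scaling.

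**Figure D3:**
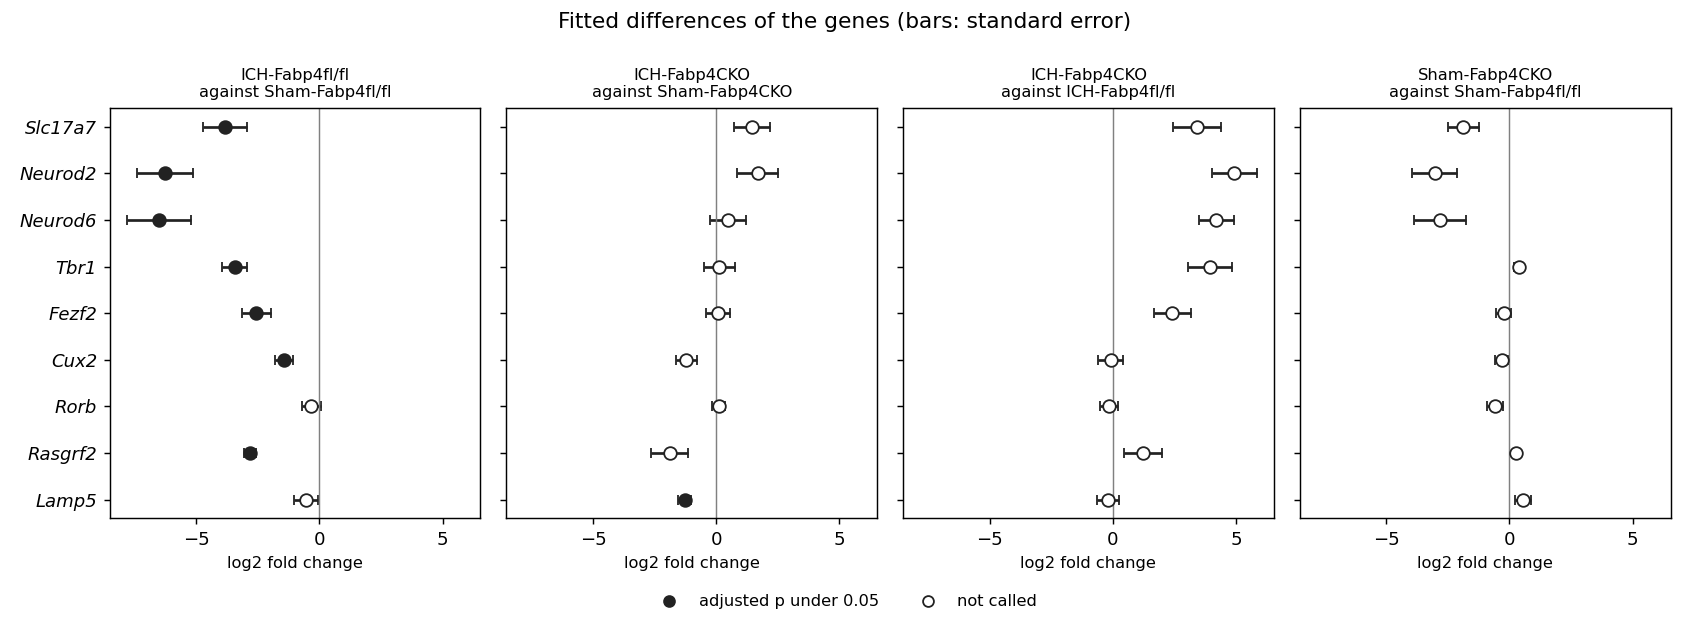
Fitted log2 fold changes of the 9 genes (points) with standard errors computed from the F statistic (bars) in 4 comparisons, filled where the adjusted p was under 0.05 by edgeR's quasi-likelihood test. The first panel has 7 filled points, all below 0, the second has 1 (Lamp5, -1.28), and the last 2 have none.

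The comparison of ICH-Fabp4CKO with ICH-Fabp4fl/fl asks what the loss of microglial Fabp4 changes after hemorrhage. The pan-excitatory and deep-layer genes had higher values in every ICH-Fabp4CKO library than in every ICH-Fabp4fl/fl library, but 0 of the 9 genes were called by edgeR's quasi-likelihood test, as were 0 of all 14600 genes tested (0% higher). At an unadjusted p under 0.05 there were 5 of the 9 genes and 1777 of all genes. The log2 fold change was 4.94 for Neurod2 (SE 0.92, adjusted p = 0.295), 4.20 for Neurod6 (SE 0.70, adjusted p = 0.257), 3.94 for Tbr1 (SE 0.89, adjusted p = 0.295), 3.41 for Slc17a7 (SE 0.97, adjusted p = 0.328) and 2.42 for Fezf2 (SE 0.74, adjusted p = 0.341). These 5 genes did not overlap between the groups, against 8.30% of all genes in this direction. The upper-layer and middle-layer genes overlapped, with Rasgrf2 at 1.21 (SE 0.77), Cux2 at -0.08, Rorb at -0.15 and Lamp5 at -0.20. DESeq2 called 4 of the 9 genes higher, Neurod2 (adjusted p = 1e-05), Neurod6 (7e-06), Tbr1 (0.000344) and Slc17a7 (0.00507), beside 255 of all genes. The edgeR fit over all 12 libraries called Tbr1 (adjusted p = 0.0280), beside 154 of all genes called higher.

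ICH-Fabp4CKO mouse 2 was the highest library of its group in these 5 genes. Without it the log2 fold changes were smaller, at 3.77 for Neurod2 and 3.44 for Neurod6 (adjusted p = 0.0697 for both), 2.85 for Tbr1, 2.16 for Slc17a7 and 2.11 for Fezf2, and Rasgrf2 moved from 1.21 to -0.23. Without ICH-Fabp4CKO mouse 1, the library with 1 Y-linked read, Neurod2 stood at 5.37 and Tbr1 at 4.33. The median log2 fold change here was 0.05 for the pan-neuronal genes and 0.05 for the striatal genes. The other cortical excitatory genes had a median of 0.91 over the 21 tested, with 7 at an unadjusted p under 0.05. Per library, the mean log2 CPM of the 9 genes minus that of the pan-neuronal genes was -5.19, -5.48 and -5.19 in ICH-Fabp4fl/fl and -4.06, -3.38 and -3.28 in ICH-Fabp4CKO, beside -3.74, -3.64 and -4.64 in Sham-Fabp4fl/fl and -4.36, -4.48 and -5.00 in Sham-Fabp4CKO. On this measure ICH-Fabp4CKO mice 2 and 3 lay above all sham libraries and mouse 1 within their range, while all ICH-Fabp4fl/fl libraries lay below them. The mean of the 9 genes itself was 3.26, 4.91 and 3.42 in ICH-Fabp4CKO, against 3.77 to 5.27 in the sham libraries. The pan-neuronal mean was 7.32, 8.29 and 6.70, against 8.55 to 8.91 in the sham libraries. That of ICH-Fabp4CKO mouse 3 was the lowest of the 12 libraries.

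The sham groups were compared to see whether genotype alone moved the genes. None of the 9 was called by edgeR, where 0.111% of all 14395 genes were called lower, and DESeq2 called 0 as well. At an unadjusted p under 0.05 there were 3 of the 9 genes and 1471 of all genes. The 3 were Neurod2 (log2 fold change -3.03, SE 0.91, adjusted p = 0.445), Neurod6 (-2.81, SE 1.05, adjusted p = 0.480) and Slc17a7 (-1.88, SE 0.63, adjusted p = 0.477). Of the 9 genes 0 were without overlap, against 8.86% of all genes that were lower without overlap. The call turned on Sham-Fabp4fl/fl mouse 3. Without it 5 genes were called lower in Sham-Fabp4CKO, Neurod2 (-3.56, adjusted p = 0.00125), Neurod6 (-3.36, adjusted p = 0.00484), Slc17a7 (-2.34, adjusted p = 0.00187), Rorb (-0.90, adjusted p = 0.0034) and Cux2 (-0.59, adjusted p = 0.00551), and Lamp5 was called higher (1.01, adjusted p = 0.00478). Over all genes the calls then went from 16 lower and 0 higher to 1331 lower and 1531 higher. Between the sham groups the thalamic list had a median log2 fold change of -1.35, with 4 of 6 genes at an unadjusted p under 0.05, and the striatal list 0.61, with 0 of 14. No gene of either list was called by edgeR or DESeq2.

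Whether ICH changed the genes differently in the 2 genotypes was tested as an interaction over all 12 libraries. By edgeR 0 of the 9 genes were called, beside 0.0133% of all 15089 genes called higher. At an unadjusted p under 0.05 there were 5 of the 9 genes and 1500 of all genes. DESeq2 called 5 of the 9 genes and 183 of all genes higher. The interaction on the log2 scale was 7.94 for Neurod2 (SE 1.54, adjusted p = 0.141), 6.98 for Neurod6 (SE 1.58, adjusted p = 0.207), 5.27 for Slc17a7 (SE 1.26, adjusted p = 0.252), 3.54 for Tbr1 (SE 0.88, adjusted p = 0.265) and 2.63 for Fezf2 (SE 0.79, adjusted p = 0.327). It was 0.90 for Rasgrf2, 0.40 for Rorb, 0.20 for Cux2 and -0.77 for Lamp5. Without ICH-Fabp4CKO mouse 2, Neurod2 was called (6.77, adjusted p = 0.0403), while the calls over all genes went from 2 higher and 1 lower to 260 higher and 111 lower.

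Within groups, single libraries moved most of the genes together. In ICH-Fabp4CKO mouse 2 all 9 genes lay above their group mean, by a median of 1.05 on the log2 scale and by up to 1.71 for Rasgrf2. All 9 also lay above the group mean in ICH-Fabp4fl/fl mouse 3, by a median of 0.52. In Sham-Fabp4fl/fl mouse 3, by contrast, 2 of the 9 did, with a median deviation of -0.73 and -2.54 for Neurod6. Other neuronal lists moved as well. ICH-Fabp4CKO mouse 2 and ICH-Fabp4fl/fl mouse 3 were also the highest of their groups in the pan-neuronal mean log2 CPM (8.29 and 8.05). The same held for the striatal mean (7.75 and 7.91). Over the 12 libraries, after group means were subtracted, 34 of the 36 pairs of genes had a positive Pearson correlation, with a median of 0.54. The closest pairs were Cux2 with Rorb (0.88), Neurod2 with Neurod6 (0.86) and Slc17a7 with Neurod2 (0.85). Lamp5 was the exception, with a median of 0.18 over its 8 pairs and its lowest value with Neurod2 (-0.19). These correlations describe 12 libraries that share depth and scaling.

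**Figure D4:**
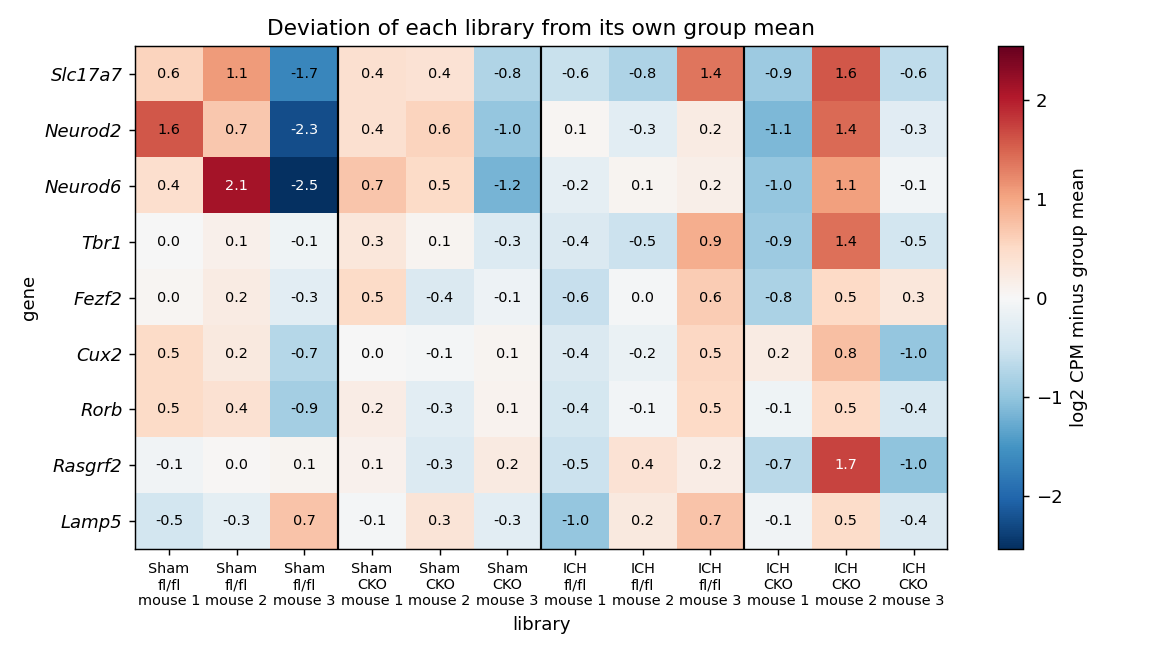
Log2 CPM of each of the 9 genes in each library minus the mean of its own group, with the 4 groups set apart by lines. ICH-Fabp4CKO mouse 2 is above its group in all 9 genes (median 1.05), while Sham-Fabp4fl/fl mouse 3 is lowest in Neurod6 (-2.54).

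The genes whose group-centred levels were most like the average of the 9 were B3galt2 (r = 0.968), Kcnn2 (0.962), Sec14l2 (0.956), Lingo1 (0.954), Khdrbs3 (0.952), Dlgap1 (0.951), Gpr3 (0.950) and Clcn4 (0.948), out of 15080 other genes over the 12 libraries. Without subtraction of group means they were B3galt2 (0.981), Rtn4rl1 (0.969), Acsl3 (0.964), Fbxw7 (0.960), Dlgap1 (0.959), Rims1 (0.958), Fbxo34 (0.956) and Camta2 (0.954). B3galt2 encodes a galactosyltransferase, Kcnn2 a calcium-activated potassium channel, and Dlgap1 and Rims1 proteins of the postsynaptic density and of the presynaptic active zone. On the group-centred measure the median r was 0.78 for the pan-neuronal list, 0.68 for the astrocyte list and 0.62 for the other cortical excitatory list. It was 0.46 for the GABAergic interneuron list, 0.45 for the oligodendrocyte list, 0.37 for the thalamic list, 0.34 for the striatal list and 0.14 for the hippocampal list, beside -0.65 for the microglia and myeloid list and -0.46 for the endothelial list. ICH-Fabp4CKO mouse 2 had the lowest microglia and myeloid mean of its group (5.30 log2 CPM, against 6.79 and 6.86), and ICH-Fabp4fl/fl mouse 3 the lowest of its own (5.16, against 5.84 and 5.59). The part of the share of other cells in the levels of the cortical genes was not tested.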

How the data were processed

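Poly(A) RNA of 12 mouse brain tissue samples was sequenced (Illumina NovaSeq). Per gene, the authors deposited expected counts (estimated read counts that need not be whole), not normalized. The submitters' processing notes name Bowtie2 2.2.8, HISAT2, StringTie 1.3.1 and DESeq2, with no role. The genome build and annotation of the counts are not given in the sources used here, and promoter coordinates are those of GRCm38.p6. Groups and mouse numbers were taken from the sample titles. Only the ICH-Fabp4fl/fl titles carry a further number after the mouse number, and its meaning is not given in the sources used here. Nothing says outright that each library is a separate mouse, and if they were not, p-values would measure technical spread only.

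Counts were rounded and tested with edgeR 4.0.16 in R 4.3.3, with TMM scaling, the filterByExpr filter (minimum count 10, minimum total count 15), the quasi-likelihood F-test and Benjamini-Hochberg adjustment over all genes tested, at a threshold of 0.05. Each comparison used the 6 libraries of its groups, and the interaction used all 12. Comparisons that share a group are not independent. Log2 CPM values of libraries and lists had 0.5 added to the CPM. Fold changes are fitted log2 differences. Their standard errors (SE) were computed from the F statistic, as the absolute log2 fold change divided by the square root of F. TPM used exon lengths for 99.3% of the identifiers, 100.0% of the 9 genes included. The fit was tested on simulated data. Each of the 9 genes had at least 2 reads in every library. Alternatives were RLE normalization, total counts without TMM, scaling to 12 pan-neuronal genes, DESeq2 1.42.0, no filter, a replicate block, 1 fit over all 12 libraries, a fold change of at least 1.5 as well, and each library left out in turn. The use of all 6 sham libraries and the removal of Sham-Fabp4fl/fl mice 1 and 2 were added after seeing the data. All 9 genes were named in every comparison. Of every other list the 3 genes with the smallest p in ICH-Fabp4fl/fl against Sham-Fabp4fl/fl were named, with the 8 genes most like the 9. Genes, lists and tests were chosen with earlier results of these data known. Figures were drawn with matplotlib 3.10.9.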

Additional observations from a re-analysis of the deposited data

How the results depend on the processing

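The count of cortical genes called lower in ICH-Fabp4fl/fl against Sham-Fabp4fl/fl was 7 of 9 in most settings, 6 when scaled to pan-neuronal genes, 5 to 7 with each library left out in turn and 2 without Sham-Fabp4fl/fl mice 1 and 2, a setting chosen after seeing the data. In ICH-Fabp4CKO against Sham-Fabp4CKO it was 1, but 3 with DESeq2, 3 with all 12 libraries in one fit, 0 (and 4 higher) when scaled to pan-neuronal genes and 0 to 4 with each library left out. In ICH-Fabp4CKO against ICH-Fabp4fl/fl 0 were higher, but 4 with DESeq2 and 1 with all 12 libraries in one fit. Between the sham groups there were 0, but up to 5 lower and 1 higher with each library left out. The interaction gave 0, but 5 higher with DESeq2 and up to 1 with each library left out. The causes were not tested.

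Directions turned only for log2 fold changes that the edgeR fit had not called, and for Lamp5 once. Scaled to pan-neuronal genes, Rorb was 0.89 and Lamp5 0.48 in ICH-Fabp4fl/fl against Sham-Fabp4fl/fl, and Lamp5 was 0.016 in ICH-Fabp4CKO against Sham-Fabp4CKO and 0.020 in ICH-Fabp4CKO against ICH-Fabp4fl/fl. Without Sham-Fabp4fl/fl mice 1 and 2 Rorb was 0.63. With total counts Fezf2 was -0.0073 in ICH-Fabp4CKO against Sham-Fabp4CKO. With each library left out, that comparison gave -0.96 to 0.50 for Tbr1, -0.21 to 0.27 for Rorb, -0.21 to 0.42 for Fezf2 and -0.27 to 0.86 for Neurod6. ICH-Fabp4CKO against ICH-Fabp4fl/fl gave -0.54 to 0.28 for Cux2, -0.46 to 0.16 for Rorb, -0.56 to 0.21 for Lamp5 and -0.23 to 1.63 for Rasgrf2. The interaction gave -0.26 to 0.57 for Cux2 and -0.54 to 1.32 for Rasgrf2.

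With the replicate block the counts of cortical genes called were 7 lower, 1 lower, 0, 0 and 0 in the 5 tests, as without it, and Tbr1 was -0.23 in ICH-Fabp4CKO against Sham-Fabp4CKO. The numbers were not taken to pair the mice, since deviations of same-numbered libraries correlated at 0.04 to 0.23 in ICH-Fabp4fl/fl against Sham-Fabp4fl/fl (each of 3 best with its own number) but at -0.63 to 0.39 between the ICH groups. Over all genes, DESeq2 called 323 lower and 255 higher between the ICH groups and all 12 libraries in one fit 208 and 154, against 0, and DESeq2 called 139 lower and 11 higher between the sham groups, against 16 and 0. In ICH-Fabp4CKO against Sham-Fabp4CKO, DESeq2 called 3541 lower and all 12 libraries in one fit 2558, against 1642. For the interaction DESeq2 called 83 lower and 183 higher, against 1 and 2. Depth limits Neurod2, Neurod6 and Fezf2 in ICH-Fabp4fl/fl, at 2 to 19 reads per library.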

Other observations

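Markers of other cell types changed with ICH beside the cortical genes. Over all 14719 genes tested in ICH-Fabp4fl/fl against Sham-Fabp4fl/fl, edgeR's quasi-likelihood F-test called 26.2% higher and 19.3% lower. In ICH-Fabp4fl/fl against Sham-Fabp4fl/fl, all 10 microglia and myeloid genes rose by edgeR's quasi-likelihood F-test, with a median log2 fold change of 3.79 and the smallest p in Itgam (3.26), Ptprc (4.31) and Csf1r (1.96). All 6 endothelial genes rose, with a median of 2.06, among them the tight junction gene Cldn5 (2.44), Cdh5 (2.43) and Pecam1 (2.39). Of 8 astrocyte genes 3 rose, Aldh1l1 (1.52), Gfap (4.04) and the water channel gene Aqp4 (1.85), and of 6 oligodendrocyte genes 2 rose, Mobp (1.23) and Mag (0.85), with Mog at 0.69 (adjusted p = 0.0604).

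Among neurons outside the cortical and striatal lists, 2 of 5 hippocampal genes fell, Grp and Fibcd1 (-2.67), while Prox1 stood at -0.91 (adjusted p = 0.111). Of all genes tested in ICH-Fabp4fl/fl against Sham-Fabp4fl/fl, 19.3% were called lower and 26.2% higher. Grp had 0 reads in all 3 ICH-Fabp4fl/fl libraries and 0.876 to 1.64 CPM in Sham-Fabp4fl/fl, so no fold is given. Of 8 GABAergic interneuron genes 1 fell, Vip (-1.96), and 1 rose, Npy (0.56), while Slc32a1, the vesicular GABA transporter, stood at -0.99 (adjusted p = 0.0801). In ICH-Fabp4CKO against Sham-Fabp4CKO, 10 of 10 microglia and myeloid genes and 3 of 6 endothelial genes rose, beside 24.5% of all 14737 genes tested. In that comparison 0 of 6 oligodendrocyte genes were called by edgeR, with 0 at an unadjusted p under 0.05 and 0 by DESeq2. Between the ICH groups all 6 oligodendrocyte genes (median log2 fold change -1.19) and all 6 endothelial genes (median -1.24) had an unadjusted p under 0.05 toward lower values in ICH-Fabp4CKO. Over all genes 1777 had an unadjusted p under 0.05 in either direction. No gene of either list was called by edgeR, while DESeq2 called 5 and 3 lower, beside 323 of all genes.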
